A study of Homo sapiens with 24 samples.

Results

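In HepG2, a human liver cancer cell line, the transcripts of 9 genes of the Hippo pathway were followed across 24 RNA-seq libraries. The genes were listed by symbol, for their place in the pathway, from the 26475 gene symbols that were counted. They were chosen with earlier results of these data known. They comprised the target genes CTGF, CYR61, ANKRD1 and AMOTL2, the transcription factors and cofactors YAP1, WWTR1 and TEAD1, the kinase LATS2, and AJUBA, which binds LATS kinases. The libraries formed 8 groups of 3 replicates. Without interferon gamma (IFNg) these were the solvent DMSO, the inhibitor ABBV-075 (50 nM), and a low (50 nM) and a high (500 nM) dose of the inhibitor ABBV-744, and the other groups were IFNg alone and IFNg with each inhibitor treatment. All groups are the same unmodified line. The study's methods give 12 h for ABBV-075 and can be read as 24 h for DMSO. The sources used here state no time for the other groups and no dose of IFNg, so that treatment times may differ between the inhibitors and between an inhibitor and its control.

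ABBV-075 inhibits all BET proteins, which bind acetylated histones and help RNA polymerase II to transcribe genes, and ABBV-744 is known as an inhibitor that prefers the second of their bromodomains. In the Hippo pathway, the kinases STK3 and STK4 with their scaffold SAV1 activate LATS1 and LATS2 with their partners MOB1A and MOB1B. The LATS kinases phosphorylate the cofactors YAP1 and TAZ (the product of WWTR1) and keep them out of the nucleus. In the nucleus YAP1 and TAZ bind TEAD factors, which have no activation domain strong enough to act alone, and switch on genes such as CTGF and CYR61. In the liver the pathway restrains growth, and CTGF (connective tissue growth factor, now named CCN2) is a secreted matricellular protein studied in fibrosis.

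Gene counts summed to between 2978982 and 4304103 per library (median 3462418.5), which was 12% to 16.8% of all reads. Of the reads, 56% to 69.4% aligned to several places, and a further 14.8% to 25.3% fell on no counted gene. All 9 genes were above the floor of 3 counts in every library, with counts from 9 (ANKRD1) to 1898 (AJUBA). The hepatocyte markers were present in all libraries, with ALB at 1865 CPM or more. Of the markers of other cell types, COL1A1, COL1A2, PECAM1, CDH5 and PTPRC had between 0 and 5 counts per library, while PDGFRB and CD68 passed the filter on low counts. The summed level of these 7 markers was 24.5 to 28.6 CPM with DMSO, 10.1 to 16.8 CPM with ABBV-075 and 14.7 to 22.1 CPM with ABBV-744, and with IFNg 24.7 to 28.8 CPM alone and 10.1 to 14.4 CPM with an inhibitor. The 2 markers tested fell with ABBV-075 (PDGFRB -1.96, CD68 -0.81 on the log2 scale, adjusted p = 0.00077 and 0.0099). Their part in the results was not tested. HEXIM1, which BET inhibitors are known to raise, was 1.41 ± 0.12 (SE, n = 3 per group) higher on the log2 scale with ABBV-075 and 0.74 ± 0.11 higher with ABBV-744 at 500 nM, whereas at 50 nM the value for ABBV-744 was 0.29 ± 0.12 with an adjusted p of 0.082. IRF1, a gene that IFNg induces, was 4.26 ± 0.12 higher on the log2 scale with IFNg. The labels do not say whether replicates came from separate cultures, so that p-values measure the spread between these libraries. In bulk RNA, fewer cells expressing a gene and less RNA per cell cannot be told apart.

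The promoters below hold the TEAD core GGAATG, the letters that TEAD factors are known to read. Of the 5 genes with a core, CTGF, which changed most, its fellow target ANKRD1 and the cofactor YAP1 are shown. Sequences are from RefSeq (GRCh38.p14) and cover the 250 bases before the annotated start, written 5′ to 3′ on the strand of the gene, with each TEAD core in capitals. Entries were found for 7 of the 9 genes.
CTGF, chr6:131951373-131951622, minus strand: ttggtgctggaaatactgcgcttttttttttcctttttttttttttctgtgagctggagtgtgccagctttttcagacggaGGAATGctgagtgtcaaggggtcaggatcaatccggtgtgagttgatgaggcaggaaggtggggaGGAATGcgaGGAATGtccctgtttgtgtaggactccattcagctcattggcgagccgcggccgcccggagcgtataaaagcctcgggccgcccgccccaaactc
ANKRD1, chr10:90921088-90921337, minus strand: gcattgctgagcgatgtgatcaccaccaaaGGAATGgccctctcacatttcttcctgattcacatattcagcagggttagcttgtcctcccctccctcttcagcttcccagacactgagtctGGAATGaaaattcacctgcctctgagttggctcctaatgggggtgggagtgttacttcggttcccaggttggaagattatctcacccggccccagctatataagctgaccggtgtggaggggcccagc
YAP1, chr11:102110197-102110446, plus strand: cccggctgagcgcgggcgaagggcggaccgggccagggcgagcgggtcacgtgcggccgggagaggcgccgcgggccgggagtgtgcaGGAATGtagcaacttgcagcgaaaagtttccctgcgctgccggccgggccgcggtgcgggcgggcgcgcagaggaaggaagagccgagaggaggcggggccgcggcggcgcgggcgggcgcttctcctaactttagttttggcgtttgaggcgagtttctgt

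CTGF carried 3 TEAD cores, which begin at positions -169, -104 and -95, where -1 is the last base before the start. Over all 35116 promoters of the table, 11.9% held the core at least once on either strand and 0.0826% held it 3 times or more. ANKRD1 carried 2 cores, at -220 and -128, and the AP-1 motif TGANTCA at -195, a motif held by 6.57% of all promoters. YAP1 carried 1 core at -162. The search used both strands, the motifs do not overlap in these windows, and no SRF CArG box was found in the windows of the 7 genes searched, against 1.16% of all promoters. The windows of LATS2 and WWTR1 held no TEAD core, and 1 of the windows of AMOTL2 and 1 of the windows of AJUBA held 1 each. These windows of AMOTL2 and AJUBA, and those of WWTR1, precede a start inside the gene and overlap its exons. These matches describe the letters only.

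The genes lie on several chromosomes (GRCh38, GENCODE 44). CTGF covers chr6:131948176-131951372 and is read on the minus strand, on the opposite strand of the long non-coding RNA LINC01013. CYR61 lies at chr1:85580761-85584589, ANKRD1 at chr10:90912096-90921087, AMOTL2 at chr3:134355347-134375479 and WWTR1 at chr3:149517235-149736714, where WWTR1-AS1 runs on the opposite strand. YAP1 lies at chr11:102110447-102233424, TEAD1 at chr11:12674421-12944737, LATS2 at chr13:20973036-21061586 and AJUBA at chr14:22971177-22982551. The libraries kept strand, and 12 reads were counted on the strand opposite to CTGF over all 24 libraries, against 3917 on its own strand.

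Per kb of exon, AJUBA was the most abundant of the 9 genes in DMSO, at 74 ± 4.9 CPM per kb (SD, n = 3), followed by YAP1 at 28.2 ± 1.1, CTGF at 13.5 ± 0.32 and WWTR1 at 11.3 ± 0.89. TEAD1 (6.55 ± 0.2), AMOTL2 (5.93 ± 0.55) and LATS2 (5.47 ± 0.047) came next on this scale, and neighbours in this order had overlapping libraries. ANKRD1 (3.43 ± 0.6) and CYR61 (2.63 ± 0.59) were lowest and overlapped as well. All further levels are CPM after TMM scaling over the 24 libraries, without regard to length.

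**Figure D1:**
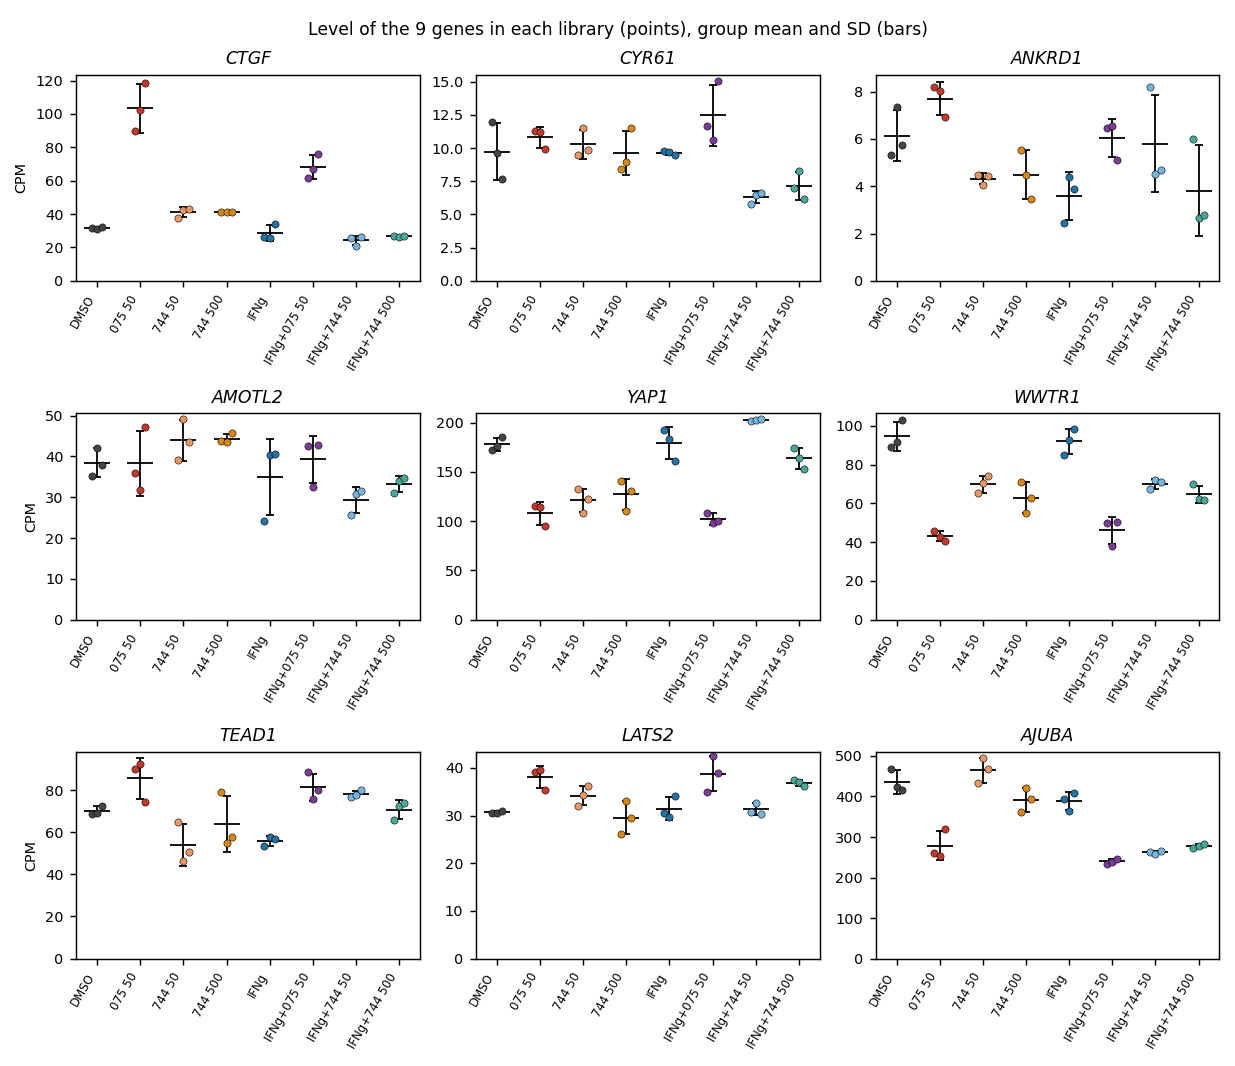
Level of each of the 9 genes in CPM (vertical axes, starting at 0) in the 24 libraries, by treatment group (horizontal axes); points are libraries, and the bars give the group mean and SD of 3 libraries. CTGF was highest with ABBV-075 (104 CPM) and with IFNg plus ABBV-075 (68.3 CPM), where YAP1, WWTR1 and AJUBA were low. AJUBA was also low with IFNg plus ABBV-744 (262 CPM at 50 nM, 279 CPM at 500 nM), where CTGF was at 24.3 and 26.6 CPM. YAP1 with ABBV-744 at 50 nM (121 CPM) overlapped with ABBV-075 (108 CPM).

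CTGF showed the widest response. Its level was 31.4, 31.0 and 32.5 CPM in the DMSO libraries, and 89.5, 102 and 119 CPM in those of ABBV-075. With ABBV-744 it stood at 37.7, 42.7 and 42.8 CPM at 50 nM and at 41.5, 41.3 and 41.1 CPM at 500 nM. All libraries of ABBV-075 were above all of ABBV-744, and these above all of DMSO. With IFNg the level was 26.3, 25.6 and 33.9 CPM, which overlapped with DMSO. IFNg plus ABBV-075 gave 61.9, 67.2 and 76 CPM. IFNg plus ABBV-744 gave 25.5, 21.2 and 26.3 CPM at 50 nM and 27.1, 26.0 and 26.7 CPM at 500 nM. These last 2 groups overlapped with each other and with IFNg alone.

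With ABBV-075, CTGF rose 3.22-fold over DMSO, and YAP1, WWTR1 and AJUBA fell. The fold change of CTGF was 1.69 ± 0.15 on the log2 scale (SE, 95% interval 1.37 to 2.00, adjusted p = 7.4e-06, quasi-likelihood test of edgeR, adjusted after Benjamini and Hochberg). Of the 9 genes, 4 passed an adjusted p of 0.05, 1 of them higher and 3 lower, where 39.3% of the 11244 genes tested passed it. CTGF alone also had a log2 fold change of at least 1.5 in size, as did 4.28% of all genes tested. The median log2 fold change of the 9 genes was 0.14, and that of all genes tested 0.03. Under 10 alternative settings and on leaving out each of the 6 libraries, CTGF stayed between 1.57 and 1.82 and passed the threshold each time.

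WWTR1, which encodes TAZ, had the largest decrease of the 9 genes. Its level was 89.1, 91.7 and 103 CPM with DMSO and 45.7, 42.7 and 40.6 CPM with ABBV-075, and the groups did not overlap. The log2 fold change was -1.16 ± 0.13 (adjusted p = 4.8e-05), which is 2.23-fold lower. YAP1, its paralog, was at 173, 176 and 185 CPM with DMSO and at 116, 114 and 94.7 CPM with ABBV-075. It fell 1.67-fold, with a log2 fold change of -0.74 ± 0.12 (adjusted p = 0.00049). AJUBA, a LIM domain protein that restrains LATS kinases, was at 468, 423 and 415 CPM with DMSO and at 261, 254 and 320 CPM with ABBV-075. Its log2 fold change was -0.67 ± 0.12 (adjusted p = 0.0013), 1.59-fold lower. All 3 decreases passed the threshold under every alternative setting and without each of the 6 libraries.

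None of the other target genes passed the threshold. CYR61, the closest relative of CTGF in the CCN family of secreted proteins, had 7.64 to 12 CPM with DMSO and 9.92 to 11.3 CPM after ABBV-075 treatment, and its log2 fold change was 0.14 (95% interval -0.35 to 0.62, adjusted p = 0.65). ANKRD1, a cardiac ankyrin repeat protein, had a log2 fold change of 0.30 (-0.22 to 0.83, adjusted p = 0.34). AMOTL2, a junction protein that binds YAP1, had one of -0.03 (-0.40 to 0.34, adjusted p = 0.91). The interval of CYR61 leaves out the fold change of CTGF, but CYR61 was measured with only 32 to 47 counts per library in these groups.

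TEAD1 and LATS2 did not pass the threshold either. TEAD1, the DNA-binding partner of YAP1, had 68.9, 68.9 and 72.6 CPM with DMSO and 90.0, 92.5 and 74.6 CPM with ABBV-075. Its log2 fold change was 0.27 ± 0.13 (adjusted p = 0.11), and without replicate 3 of ABBV-075, the library closest to DMSO, it was 0.36 ± 0.11 (adjusted p = 0.010). LATS2, a kinase of YAP1 and itself a YAP1 target, had 30.6 to 31.0 CPM with DMSO and 35.5 to 39.5 CPM after ABBV-075 treatment, and its log2 fold change was 0.29 ± 0.14 (adjusted p = 0.11). When levels were corrected for gene GC content (the slope of levels on it was -0.31 to 0.077 in the ABBV-075 libraries, per 10 GC points on the log2 scale, and 0.029 to 0.13 in DMSO), LATS2 rose by 0.44 ± 0.13 (adjusted p = 0.011).

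**Figure D2:**
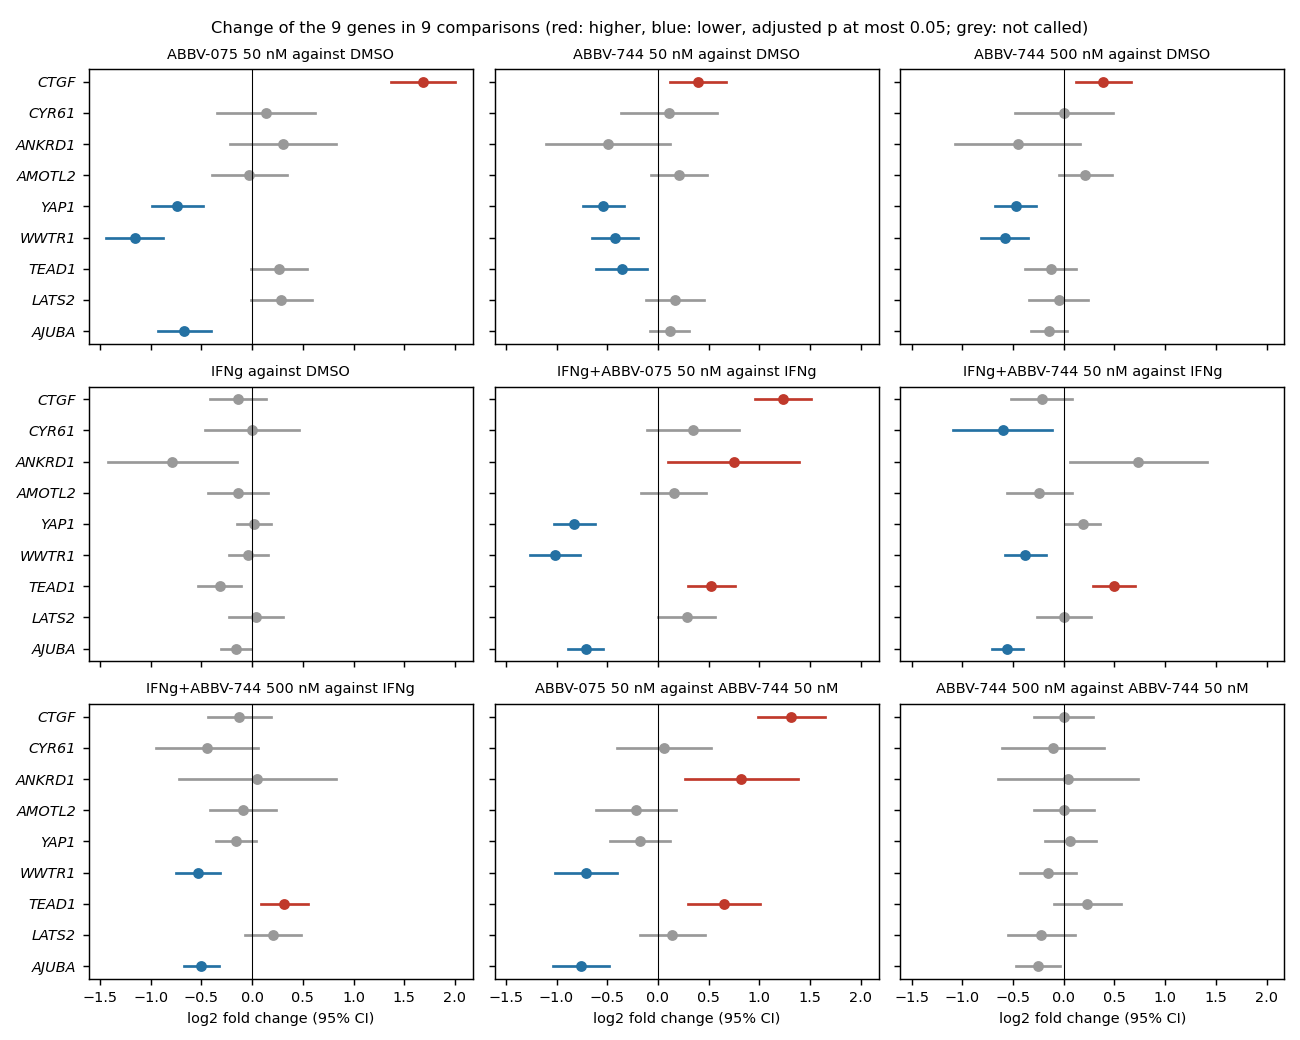
Log2 fold change of the 9 genes (horizontal axes) with its 95% interval in 9 comparisons; red and blue points passed an adjusted p of 0.05 in the higher and lower direction, and grey points did not. CTGF was at 1.69 with ABBV-075 against DMSO and 1.24 with IFNg plus ABBV-075 against IFNg, while WWTR1 lay below 0 in all 6 comparisons of an inhibitor with its control.

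Upstream of YAP1 and TAZ, many transcripts of the Hippo kinases and their scaffolds rose with ABBV-075. Of the 19 genes of this list, 17 passed the filter on low counts, and 9 of them rose and 0 fell, and the median log2 fold change was 0.49, against 0.03 over all genes. Over all genes tested, 19.8% rose. The largest increases were those of MOB1B (1.29 ± 0.28, adjusted p = 0.0034), a coactivator of LATS kinases, of SAV1 (1.21 ± 0.22, adjusted p = 0.0013), the scaffold of STK3 and STK4, and of TAOK3 (0.90 ± 0.23, adjusted p = 0.0098) and STK4 (0.77 ± 0.13, adjusted p = 0.00074), which are kinases. MOB1B was at 9.01 ± 3.5 CPM with DMSO and at 22.4 ± 5.92 CPM with ABBV-075 (SD, n = 3). SAV1 went from 10.6 ± 2.8 to 25.0 ± 4.49 CPM. LATS1 (0.20, adjusted p = 0.26) and NF2 (0.09, adjusted p = 0.60), the gene of the upstream activator merlin, did not pass. After the correction for GC content the list also had 9 higher and 0 lower genes, but its median was 0.27, and MOB1B was at 0.77 ± 0.23 (adjusted p = 0.012).

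Several transcripts of the TEAD factors and their cofactors went the other way. Of 10 listed genes 7 were tested, and 4 of them fell and 0 rose, with a median of -0.51. Beside YAP1 and WWTR1 these were TEAD2 (-1.49 ± 0.39, adjusted p = 0.010), which is low here at 4.67 ± 1.39 CPM with DMSO, and VGLL4 (-0.51 ± 0.14, adjusted p = 0.012), a cofactor that competes with YAP1 for TEAD factors. TEAD3 (-0.41, adjusted p = 0.085) and TEAD4 (-0.37, adjusted p = 0.063) did not pass. TEAD1, which lay in the higher direction (0.27, adjusted p = 0.11), did not pass either. Of the TEAD factors themselves, only TEAD2 was thus called lower. Over all genes tested, 19.6% fell. Of the 3 Ajuba LIM proteins, AJUBA and LIMD1 (-0.42 ± 0.14, adjusted p = 0.029) fell, and WTIP did not pass.

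**Figure D3:**
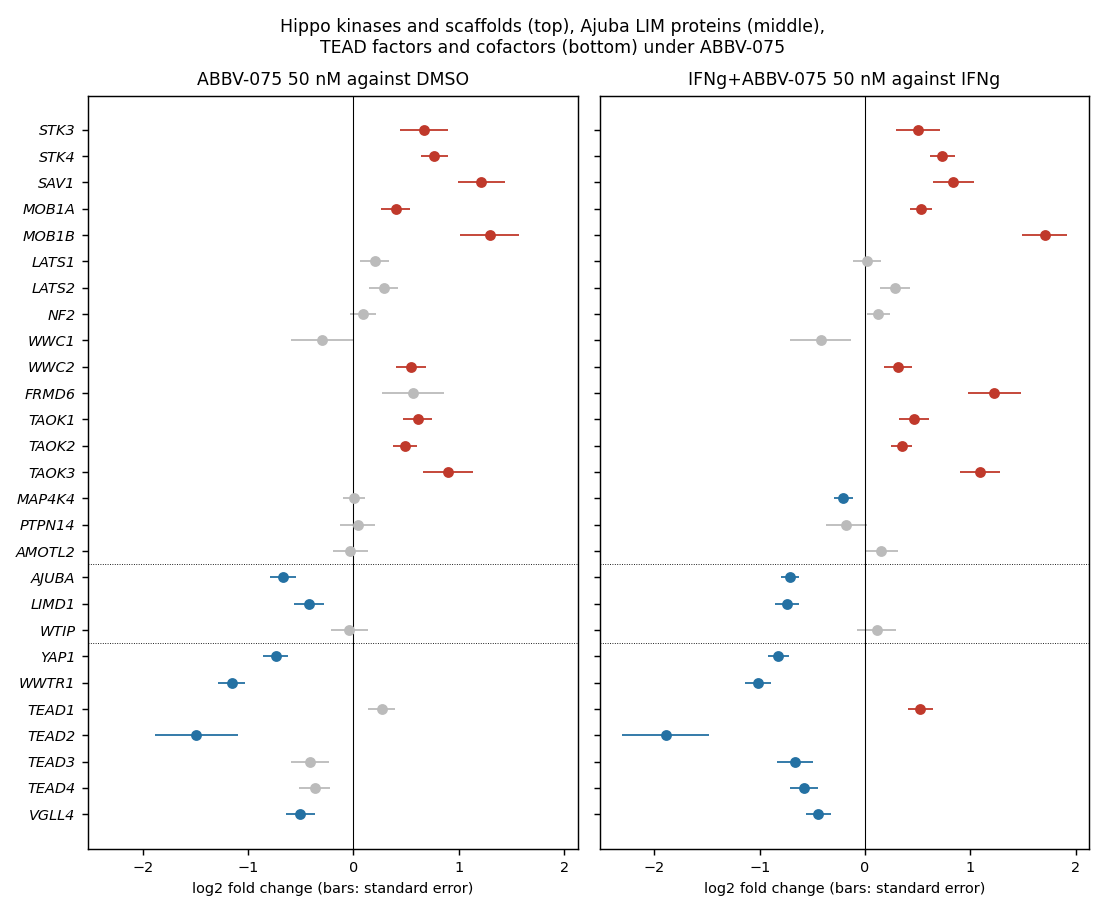
Log2 fold change (horizontal axes) with its standard error of the tested Hippo kinases and scaffolds (top), Ajuba LIM proteins (middle) and TEAD factors and cofactors (bottom), with ABBV-075 against DMSO (left) and IFNg plus ABBV-075 against IFNg (right); red and blue points passed an adjusted p of 0.05, grey points did not. At the top 9 and 10 genes were higher, and at the bottom 4 and 6 were lower.

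Among 22 genes of a published YAP/TAZ target signature, 15 were tested, and with ABBV-075 2 rose, 1 fell and 12 did not pass, with a median of 0.14, where 39.3% of all genes tested were called. With the correction for GC content 3 rose and 1 fell. DOCK5, an exchange factor for RAC, rose beside CTGF by 0.42 ± 0.14 (adjusted p = 0.027), and AXL, a receptor tyrosine kinase, fell by 1.8 ± 0.25 on the log2 scale (adjusted p = 0.00023), from 10.4 ± 0.837 to 3.01 ± 0.132 CPM. Of the 6 CCN genes only CTGF and CYR61 passed the filter, and the others had at most 3 counts in any library.

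CTGF is known to respond to TGF-beta and to the serum response factor SRF as well. Of 8 TGF-beta responsive genes 6 were tested, and 1 rose and 3 fell with ABBV-075, with a median of -0.53, where 19.8% of all genes rose and 19.6% fell. With the correction for GC content 1 rose and 4 fell. TGFBI, a secreted matrix protein, was at 278 ± 43.0 against 489 ± 25.5 CPM (-0.84 ± 0.13 on the log2 scale, adjusted p = 0.00039). SMAD7, an inhibitor of TGF-beta signalling, fell too (-0.65 ± 0.19, adjusted p = 0.017), and the ligand gene TGFB1 rose by 0.97 ± 0.23 (adjusted p = 0.0065). Of 13 SRF and actin genes 11 were tested, and 2 rose and 2 fell, with a median of 0.11, a share near the 39.3% of all genes called. With the correction for GC content 4 rose and 2 fell. The immediate early genes FOS (2.16 ± 0.56, adjusted p = 0.0096, at 0.759 ± 0.782 CPM with DMSO) and EGR1 (1.26 ± 0.22, adjusted p = 0.00098) rose, and the actin-binding genes TAGLN (-0.44 ± 0.15) and TPM1 (-0.41 ± 0.13) fell.

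With IFNg alone, 0 of the 9 genes passed the threshold with edgeR, where 3.46% of 11217 genes did, and 3 had an unadjusted p under 0.05. DESeq2 also called 0. The levels of CTGF, YAP1, WWTR1, CYR61, AMOTL2 and LATS2 overlapped between IFNg and DMSO. ANKRD1 had 5.32, 7.36 and 5.73 CPM with DMSO and 2.44, 4.41 and 3.89 CPM with IFNg, a log2 fold change of -0.78 ± 0.32 (adjusted p = 0.22). TEAD1 was at 53.4, 57.9 and 56.7 CPM with IFNg, below all DMSO libraries, with a log2 fold change of -0.32 ± 0.10 (adjusted p = 0.085). AJUBA had 364 to 408 CPM, also below DMSO, with one of -0.16 ± 0.07 (adjusted p = 0.31).

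In the presence of IFNg, ABBV-075 again raised CTGF and lowered YAP1, WWTR1 and AJUBA. Of the 9 genes 6 passed the threshold, 3 higher and 3 lower, where 56.6% of 11187 genes did, and their median was 0.28 against 0.00 over all genes. CTGF rose 2.36-fold over IFNg alone (1.24 ± 0.14 on the log2 scale, adjusted p = 8.2e-10). WWTR1 went from 85.0, 92.5 and 98.1 CPM with IFNg to 49.7, 38.1 and 50.3 CPM (-1.01 ± 0.12, adjusted p = 5.8e-09). YAP1 went from 193, 184 and 161 to 109, 97.9 and 100 CPM (-0.82 ± 0.10, adjusted p = 7.4e-09), and AJUBA from 393, 364 and 408 to 234, 240 and 246 CPM (-0.71 ± 0.09, adjusted p = 5.9e-09). None of these groups overlapped, and these 4 calls held under all alternatives.

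TEAD1 also rose in this comparison, to 88.4, 75.9 and 79.9 CPM, by 0.53 ± 0.12 on the log2 scale (adjusted p = 0.00018). ANKRD1 was at 6.46, 6.53 and 5.12 CPM, 0.75 ± 0.32 above IFNg (adjusted p = 0.044), but with DESeq2 the adjusted p was 0.18, and without replicate 1 or 3 of IFNg, or replicate 1 or 2 of IFNg plus ABBV-075, it was 0.066 to 0.20. CYR61 (0.35, adjusted p = 0.19), AMOTL2 (0.16, adjusted p = 0.42) and LATS2 (0.28, adjusted p = 0.085) did not pass. Without replicate 1 of IFNg plus ABBV-075, LATS2 was at 0.37 ± 0.14 (adjusted p = 0.030). After the correction for GC content CYR61 (0.54 ± 0.21, adjusted p = 0.027), AMOTL2 (0.43 ± 0.13, adjusted p = 0.0054) and LATS2 (0.55 ± 0.12, adjusted p = 0.00010) passed, and ANKRD1 did not (0.55 ± 0.31, adjusted p = 0.13).

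In the wider pathway, of the 17 Hippo kinases and scaffolds tested, 10 rose and 1 fell, with a median of 0.35, where 28.2% of all genes rose and 28.4% fell (56.6% in all). The increases were led by MOB1B (1.71 ± 0.21), FRMD6 (1.23 ± 0.25), TAOK3 (1.09 ± 0.19) and SAV1 (0.84 ± 0.19). Of the 7 TEAD factors and cofactors tested, TEAD1 rose and 6 fell, with TEAD2 at -1.89 ± 0.41 and TEAD3 at -0.67 ± 0.17. Of the 15 genes tested of the YAP/TAZ target signature, 3 rose and 2 fell, with a median of 0.26. After the correction for GC content 6 rose and 3 fell, with a median of 0.43. AXL fell by 2.48 ± 0.36 on the log2 scale, to 1.86 ± 1.38 CPM (SD, n = 3). It is a gene of low counts here, with 2 to 51 per library over all groups.

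Whether IFNg altered the response to ABBV-075 was tested as an interaction. For CTGF the difference of the log2 fold changes was -0.47 ± 0.20 (95% interval -0.89 to -0.04, adjusted p = 0.72). None of the 9 genes passed with edgeR, where 0.0347% of 11530 genes did, and 1 had an unadjusted p under 0.05. The intervals of YAP1 (-0.42 to 0.21) and WWTR1 (-0.24 to 0.50) bound the difference for these genes. DESeq2 called 0 of the 9 as well.

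ABBV-744 lowered YAP1 and WWTR1 at both doses. YAP1 had 132, 108 and 123 CPM at 50 nM and 141, 110 and 131 CPM at 500 nM, all below the DMSO libraries, with log2 fold changes of -0.54 ± 0.10 (adjusted p = 0.00054) and -0.47 ± 0.10 (adjusted p = 0.0011). WWTR1 had 65.1, 70.5 and 73.9 CPM at 50 nM and 70.8, 54.8 and 62.9 CPM at 500 nM, with log2 fold changes of -0.42 ± 0.11 (adjusted p = 0.0098) and -0.58 ± 0.11 (adjusted p = 0.00055). At 50 nM the WWTR1 call was lost without replicate 3 of DMSO (adjusted p = 0.087) and after the correction for GC content (-0.23 ± 0.10, adjusted p = 0.13).

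In all, 4 of the 9 genes passed at 50 nM, 1 higher and 3 lower, where 18.9% of 11116 genes did, and 3 passed at 500 nM, 1 higher and 2 lower, where 15.3% of 11124 did. CTGF was 1.32-fold higher than DMSO at 50 nM (0.40 ± 0.13, adjusted p = 0.040) and 1.31-fold higher at 500 nM (0.39 ± 0.13, adjusted p = 0.040). Both calls for CTGF were lost with 7 of 10 alternative settings, DESeq2 among them. They were also lost without any 1 of the DMSO replicates, without replicate 2 or 3 of ABBV-744 at 50 nM and without replicate 1 or 3 at 500 nM (adjusted p = 0.057 to 0.14). TEAD1 at 50 nM (65.1, 46.2 and 50.7 CPM, -0.36 ± 0.12, adjusted p = 0.040) was likewise lost without any 1 of the DMSO replicates or replicate 2 or 3 of ABBV-744 (adjusted p = 0.070 to 0.15). The TEAD1 call was also lost under 5 of 10 alternative settings. Among these were DESeq2 (adjusted p = 0.087) and the GC correction (-0.20, adjusted p = 0.22). Calls for YAP1 held under all alternatives at both doses. AJUBA was at 433, 494 and 469 CPM at 50 nM and 362, 421 and 394 CPM at 500 nM, and both groups overlapped with DMSO. After the correction for GC content AJUBA passed as lower at 500 nM (-0.24 ± 0.06, adjusted p = 0.0069).

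Between the doses of ABBV-744 no difference in the 9 genes passed the threshold with edgeR, where 0.0274% of 10967 genes did, and 1 of the 9 genes, AJUBA, had an unadjusted p under 0.05 (-0.26, 95% interval -0.48 to -0.04). DESeq2 called 0 of them, while AJUBA passed in edgeR with a block for replicate number (-0.26 ± 0.07, adjusted p = 0.0089). For CTGF the log2 difference of the high from the low dose was -0.00 (95% interval -0.30 to 0.29).

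At the matched dose of 50 nM, ABBV-075 differed from ABBV-744 in 5 of the 9 genes, where 40.8% of 10992 genes differed. CTGF was 2.49-fold higher with ABBV-075 (1.32 ± 0.15 on the log2 scale, adjusted p = 0.00040), and WWTR1 was 1.64-fold lower (-0.71 ± 0.14, adjusted p = 0.0037). AJUBA was 1.69-fold lower (-0.76 ± 0.13, adjusted p = 0.0020), TEAD1 was 1.57-fold higher (0.65 ± 0.16, adjusted p = 0.010), and these 4 calls held under all alternatives. With GC content corrected for, TEAD1 was at 0.40 ± 0.12 and AJUBA at -0.48 ± 0.09, and CTGF was at 1.55 ± 0.11 and WWTR1 at -1.06 ± 0.12. ANKRD1 (0.82 ± 0.25, adjusted p = 0.025) was lost without replicate 1 or 2 of ABBV-075 or any 1 replicate of ABBV-744 (adjusted p = 0.058 to 0.081), and with DESeq2 (adjusted p = 0.11). ANKRD1 did not pass after the correction for GC content either (0.47, adjusted p = 0.17). For YAP1 the log2 difference was -0.17 (95% interval -0.47 to 0.12, adjusted p = 0.31), but after the correction for GC content YAP1 was lower with ABBV-075 (-0.38 ± 0.10, adjusted p = 0.0075) and LATS2 was higher (0.40 ± 0.14, adjusted p = 0.034). The intervals of CYR61 (-0.40 to 0.52) and AMOTL2 (-0.61 to 0.18) bound the differences for the other genes that did not pass. The 2 comparisons with DMSO share the DMSO libraries, and times of treatment may differ.

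With IFNg, ABBV-744 lowered WWTR1 and AJUBA at both doses, TEAD1 was higher at both doses with a call at 500 nM that the correction for GC content ended, and CTGF did not pass the threshold. At 50 nM 4 of the 9 genes passed, 1 higher and 3 lower, where 51.7% of 11150 genes did, and at 500 nM 3 passed, where 45.7% of 11091 did. AJUBA fell to 262, 259 and 265 CPM at 50 nM (-0.56 ± 0.08, adjusted p = 1.8e-07) and to 274, 279 and 284 CPM at 500 nM (-0.50 ± 0.09, adjusted p = 1.4e-05). WWTR1 fell by 0.38 ± 0.10 (adjusted p = 0.0018) and by 0.53 ± 0.11 (adjusted p = 0.00016) on the log2 scale. TEAD1 was at 76.9, 77.6 and 80.0 CPM at 50 nM (0.49 ± 0.10, adjusted p = 0.00016) and at 65.8, 72.5 and 74.0 CPM at 500 nM (0.32 ± 0.11, adjusted p = 0.024). With GC content corrected for, TEAD1 was at 0.24 ± 0.09 at 50 nM (adjusted p = 0.049) and did not pass at 500 nM (0.18 ± 0.10, adjusted p = 0.16). AJUBA was then at -0.28 ± 0.06 and -0.22 ± 0.06, and WWTR1 at -0.72 ± 0.09 and -0.75 ± 0.09, at 50 and 500 nM, all of which passed. At 500 nM the uncorrected TEAD1 call was lost without replicate 1 of IFNg or replicate 2 or 3 of IFNg plus ABBV-744 (adjusted p = 0.050 to 0.093).

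CTGF had log2 fold changes of -0.22 (95% interval -0.52 to 0.08, adjusted p = 0.22) and -0.13 (-0.44 to 0.19, adjusted p = 0.53) against IFNg. YAP1 was at 201, 202 and 204 CPM at 50 nM, above the IFNg libraries (0.19 ± 0.09, adjusted p = 0.064). Without replicate 1 of IFNg, YAP1 was at 0.25 ± 0.09 (adjusted p = 0.017) and AMOTL2 at -0.45 ± 0.14 (adjusted p = 0.0085). After the correction for GC content, at 500 nM YAP1 (-0.25 ± 0.07, adjusted p = 0.0069) and LATS2 (0.47 ± 0.12, adjusted p = 0.0027) passed. CYR61 had 9.75, 9.69 and 9.45 CPM with IFNg and 5.77, 6.49 and 6.64 CPM with IFNg plus ABBV-744 at 50 nM (-0.60 ± 0.24, adjusted p = 0.035), on 23 to 24 counts per library, and this call was lost without any 1 of the 6 libraries (adjusted p = 0.054 to 0.10). Of the 17 Hippo kinases and scaffolds tested at 50 nM, 6 rose and 2 fell, a share near the 51.7% of all genes called, and after the correction for GC content 2 rose and 1 fell.

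The change with ABBV-744 at 50 nM differed by the presence of IFNg in 5 of the 9 genes, where 51.6% of 11451 genes passed this test. The interaction was positive for YAP1 (0.70 ± 0.13, adjusted p = 4.7e-05), TEAD1 (0.82 ± 0.16, adjusted p = 9.2e-05) and ANKRD1 (1.20 ± 0.44, adjusted p = 0.025), and negative for AJUBA (-0.70 ± 0.11, adjusted p = 8.7e-06) and CTGF (-0.64 ± 0.20, adjusted p = 0.0073), where the median over all genes was -0.14. The log2 fold change of YAP1, for example, was -0.54 without IFNg and 0.19 with it, of which only the first passed the threshold. ANKRD1 lost the call without replicate 2 of DMSO, replicate 1 of IFNg or replicate 1 of IFNg plus ABBV-744 (adjusted p = 0.073 to 0.13). ANKRD1 also lost it with DESeq2 (adjusted p = 0.069), and CTGF with scaling by library size only (adjusted p = 0.058).

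The libraries also differed in how gene levels went with gene GC content. The slope of a gene's level, relative to its mean over all libraries, on its GC content was 0.22 to 0.45 on the log2 scale per 10 GC points in the libraries of ABBV-744 at 50 nM and -0.30 to -0.27 in those of IFNg plus ABBV-744 at 50 nM. It was 0.029 to 0.13 with DMSO and 0.059 to 0.23 with IFNg. Among the called genes, those with a positive interaction have transcripts of low GC content (YAP1 43.5%, TEAD1 43.0%, ANKRD1 42.1%). Those with a negative one have higher GC content (CTGF 51.5%, AJUBA 52.6%). Of the genes not called, WWTR1 (42.2%) had an interaction of 0.01, CYR61 (47.8%) of -0.74, AMOTL2 (56.3%) of -0.48 and LATS2 (51.8%) of -0.20. The cause of the interactions was not tested. After the correction for GC content, the interaction was 0.40 ± 0.10 for YAP1 (adjusted p = 0.0040), 0.45 ± 0.14 for TEAD1 (adjusted p = 0.017) and -0.26 ± 0.09 for AJUBA (adjusted p = 0.039). CTGF (-0.25 ± 0.18, adjusted p = 0.36) and ANKRD1 (0.70 ± 0.44, adjusted p = 0.30) no longer passed, and WWTR1, at 0.01 ± 0.14 before, was at -0.48 ± 0.14 (adjusted p = 0.0098).

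**Figure D4:**
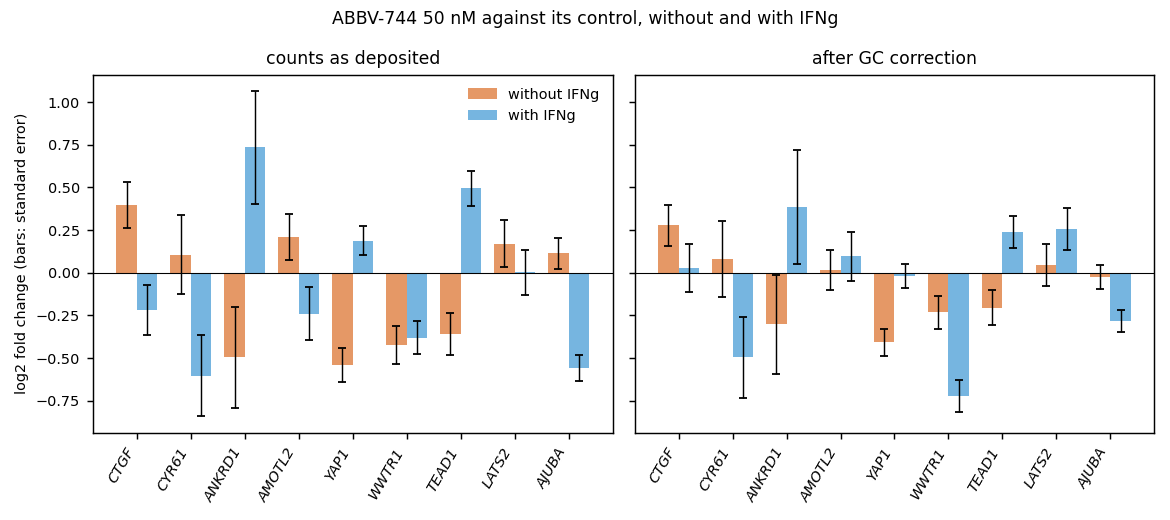
Log2 fold change of the 9 genes (vertical axis, bars with standard errors) with ABBV-744 at 50 nM against DMSO (without IFNg) and with IFNg plus ABBV-744 at 50 nM against IFNg (with IFNg), from the deposited counts (left) and corrected for gene GC content (right). The interaction of YAP1 was 0.70 before and 0.40 after the correction.

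At 500 nM the interaction passed for 3 of the 9 genes, where 33.5% of 11428 genes passed: CTGF (-0.50 ± 0.19, adjusted p = 0.044), TEAD1 (0.46 ± 0.17, adjusted p = 0.034) and AJUBA (-0.34 ± 0.12, adjusted p = 0.026). The count was 0 without replicate 3 of DMSO, replicate 2 or 3 of ABBV-744 or replicate 3 of IFNg, and 1 without replicate 2 of DMSO or replicate 2 of IFNg plus ABBV-744. CTGF lost its call under all 10 alternative settings (adjusted p = 0.0501 to 0.58), TEAD1 under 4 and AJUBA under 1. On leaving out each of the 12 libraries, CTGF lost it 10 times, TEAD1 7 times and AJUBA 5 times. After the correction for GC content none of these 3 passed, with CTGF at -0.18 ± 0.17, TEAD1 at 0.23 ± 0.15 and AJUBA at 0.01 ± 0.09, and LATS2 passed instead (0.60 ± 0.17, adjusted p = 0.0094).

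Over the 8 group means of log2 CPM, among 11680 genes, the transcripts most like CTGF were ID2 (Pearson's r = 0.984), SRXN1 (0.984), SNX29 (0.982), STARD9 (0.981) and ENSA (0.979). Those most like CYR61 were WDR45B (0.958), SMAP2 (0.955), TAF6L (0.954), STK40 (0.949) and SHB (0.948). The 8 means come from the same 24 libraries for all genes, and the coefficients are given as a description.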

How the data were processed

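RNA-seq of HepG2 cells in 24 libraries was analysed, in 8 groups of 3. After rRNA depletion and strand-specific library preparation, the authors trimmed reads with Trimmomatic 0.33 and aligned them to GRCh38 with STAR 2.7.1. The authors deposited unnormalized read counts per gene symbol, with a column for each strand. The annotation used for counting is not given in the sources used here. Reads that align to several places are in no gene count. The gene-strand column was used, which held 98.3% to 98.5% of reads assigned to genes on either strand.

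Tests used edgeR 4.0.16 (R 4.3.3): filterByExpr, TMM scaling, glmQLFit and glmQLFTest over the groups compared, with no covariate. P-values were adjusted (Benjamini-Hochberg) over all genes tested, and a gene was called at an adjusted p of at most 0.05. Interactions were fitted over 4 groups. Levels are CPM after TMM over all libraries, given as mean ± SD of 3, and CPM per kb uses the merged exons of GENCODE 44. Of the 26475 symbols, 24545 were paired with GENCODE.

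Alternatives were DESeq2 1.42.0, RLE scaling, scaling by library size only, no count filter, a minimum of 10 counts per library, 1 fit of all 24 libraries, a block for replicate number, both strands summed, a GC content correction (a lowess curve with a span of 0.3 per library) with and without that block, and leaving out single replicates. Fits were tested on simulated data. Named are all 9 genes, the up to 4 genes with the largest change among those called in each list, label checks and markers, and the 5 genes most alike; TEAD3, TEAD4, LATS1 and NF2 where they did not pass were named after their values were seen. The 9 genes and the lists were chosen with earlier results of these data known. The values of 1 listed gene are not reported here.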

Additional observations from a re-analysis of the deposited data

Results flagged for a closer look

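For ABBV-744, the change of some genes differed by the presence of IFNg, as tested by an interaction term with edgeR and Benjamini-Hochberg adjustment over all genes. At 50 nM the difference of the log2 fold changes (with IFNg minus without) was 0.70 for YAP1, 0.82 for TEAD1, 1.20 for ANKRD1, -0.70 for AJUBA and -0.64 for CTGF. At 500 nM it was 0.46 for TEAD1, -0.34 for AJUBA and -0.50 for CTGF. The CTGF call at 500 nM was lost under all 10 alternative settings. The libraries of ABBV-744 with and without IFNg also differ in the slope of gene levels on GC content, and the values after a correction for it stand beside the results above.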

How the results depend on the processing

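With ABBV-075, with and without IFNg, the changes of CTGF, YAP1, WWTR1 and AJUBA kept their direction and passed the threshold under all 10 alternatives and without each library. Of the 37 calls of the 9 genes over 12 comparisons, DESeq2 lost 9, the GC correction 13, and the other alternatives 1 to 6, and 14 were lost when GC correction and block were combined.

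The number of the 9 genes called with ABBV-744 at 50 nM against DMSO, 4 with the reported fit, was 2 with DESeq2, with all 24 libraries and with the replicate block, 1 with the GC correction with or without the block, and 1 to 4 on leaving out a replicate. For IFNg against DMSO it was 1 (TEAD1) with library size only and 1 (AJUBA) with the GC correction, in place of 0. For IFNg plus ABBV-744 at 50 nM it was 2 in place of 4 when the GC correction and replicate block were combined. For the dose comparison of ABBV-744 it was 1 (AJUBA) with the replicate block, with or without the GC correction, in place of 0. For the interaction at 500 nM it was 1 in place of 3 with DESeq2, with all 24 libraries and with the GC correction with or without the block, and 0 to 4 on leaving out a replicate. The direction reversed for WWTR1 in the interaction at 50 nM (-0.48 with the GC correction, with or without the block) and for AJUBA in the interaction at 500 nM (0.0070 with the GC correction, 0.0073 with the block as well). The cause of these shifts was not tested.

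Replicate numbers were not taken as pairs: the correlation of same-numbered libraries was -0.18 to 0.34, and in 0 of 9 comparisons were all 3 above 0.1. Between the doses of ABBV-744 the correlations were 0.25, 0.33 and 0.056. There the block moved the calls over all genes from 0 higher and 3 lower to 180 higher and 140 lower. Beside its changes given above, the block moved the count of the 9 genes from 3 to 2 (ABBV-744 at 500 nM against DMSO, and the interaction at 500 nM), from 6 to 7 (IFNg plus ABBV-075) and from 5 to 6 (interaction at 50 nM).

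Over all genes, calls moved by more than 1.5 times from 2102 to between 902 and 1196 (ABBV-744 at 50 nM against DMSO), from 1700 to 986 (500 nM), from 5766 to between 3800 and 3842 (IFNg plus ABBV-744 at 50 nM), from 3 to between 5 and 320 (dose comparison), from 4 to between 12 and 45 (ABBV-075 interaction), from 5905 to between 2299 and 2335 and from 3827 to between 1827 and 1914 (ABBV-744 interactions at 50 and 500 nM). Of the 72 group levels, 2 moved by more than 1 SD with RLE scaling and 2 with counts of both strands. ANKRD1, at 9 to 34 counts per library, and CYR61, at 20 to 50, are limited by depth.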
